A study of Mus musculus with 9 samples.

Results

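The protein genes of the mitochondrial ribosome were taken as the probe sets whose array annotation gives a single symbol that begins with Mrpl or Mrps and a digit. This rule selected 85 of 34760 probe sets, which represent 77 of 19937 named genes: 48 of the large subunit (Mrpl) and 29 of the small subunit (Mrps). Genes were selected by symbol alone, and all 77 are accounted for. The family itself was chosen on its log2 changes against the control hairpin in these same arrays, so the counts against that control are a description and not independent evidence.

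Total RNA of the mouse acute myeloid leukaemia line RN2, which carries the MLL-AF9 fusion and activated NrasG12D, was measured on 9 Affymetrix arrays. All cells held a TRMPV vector, which expresses a short hairpin RNA under doxycycline, and all received doxycycline at 1 ug/ml for 96 h. Brg1, the ATPase of the SWI/SNF chromatin remodelling complex, was targeted by 3 hairpins (Brg1sh_3232, Brg1sh_3364, Brg1sh_4935) with 2 arrays each. The control hairpin against Renilla luciferase (Rluc), a gene that mouse cells lack, had 3 arrays, and all 3 Brg1 comparisons use them. The labels add the term TtTMPV to the cell line name of the Rluc arrays alone, so this difference runs with the comparison and cannot be told apart from it. Whether the arrays of a group stem from separate cultures is not stated, and the p-values therefore capture the spread among these arrays alone, possibly a technical one. The study asked which transcription is regulated downstream of Brg1 in this leukaemia.

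The mitochondrial ribosome translates the few messages encoded by mitochondrial DNA, all of which give membrane subunits of the respiratory chain and ATP synthase. Its RNAs come from mitochondrial DNA, whereas its proteins are encoded in the nucleus, made in the cytosol and imported. Many of the proteins descend from bacterial ribosomal proteins, and the others are found only in mitochondria.

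Values are log2 expression after RMA, a method that equalises arrays and combines the probes of a set, and array medians lay between 7.39 and 7.49. Levels of different probe sets cannot be compared with each other, and the number of arrays limits the precision. Smarca4, which encodes Brg1, read 11.79, 11.77 and 11.79 on the Rluc arrays. It read 10.67 and 10.90 with Brg1sh_3232, 10.78 and 10.81 with Brg1sh_3364, and 10.70 and 10.76 with Brg1sh_4935. All knockdown arrays lay below all controls, and the range of Brg1sh_3232 held the values of the other Brg1 hairpins. The mean of the 3 hairpins was 49.5% of control (log2 change -1.01 ± 0.05 SE, adjusted p = 2.22e-06). All 10 markers of myeloid leukaemia cells lay above the array median on every array, among them Ptprc, Kit and Myb. Of the lymphoid markers 7 of 8 lay below it on every array, as did 4 of 4 erythroid markers. Also above it on every array were 6 of 10 macrophage, 4 of 8 mast cell and basophil, 2 of 6 fibroblast and 1 of 8 lymphoid markers. Since levels of different probe sets cannot be compared, these counts are only a description.

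Most genes of the mitochondrial ribosome were lower after Brg1 knockdown, each by a modest amount. In the mean of the 3 hairpins, 57 of the 77 genes fell, 2 rose and 18 were not called (limma, Benjamini-Hochberg adjusted p below 0.05 over all 19937 genes). Of all genes tested, 15% fell and 13.3% rose in this comparison. In the large subunit 32 of 48 genes fell and 2 rose, with a median log2 change of -0.24, or 84.7% of control. In the small subunit 25 of 29 genes fell and 0 rose, with a median of -0.26, or 83.8% of control. The median over all genes tested was 0.00. With each array centred on its median, the share of higher genes among all calls moved from 47.1% to 36.5%, and the subunit medians became -0.28 and -0.30. When the 3 hairpin means served as single replicates, 17 large and 12 small subunit genes were still called lower. The share of all genes called in that fit was not computed.

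**Figure D1:**
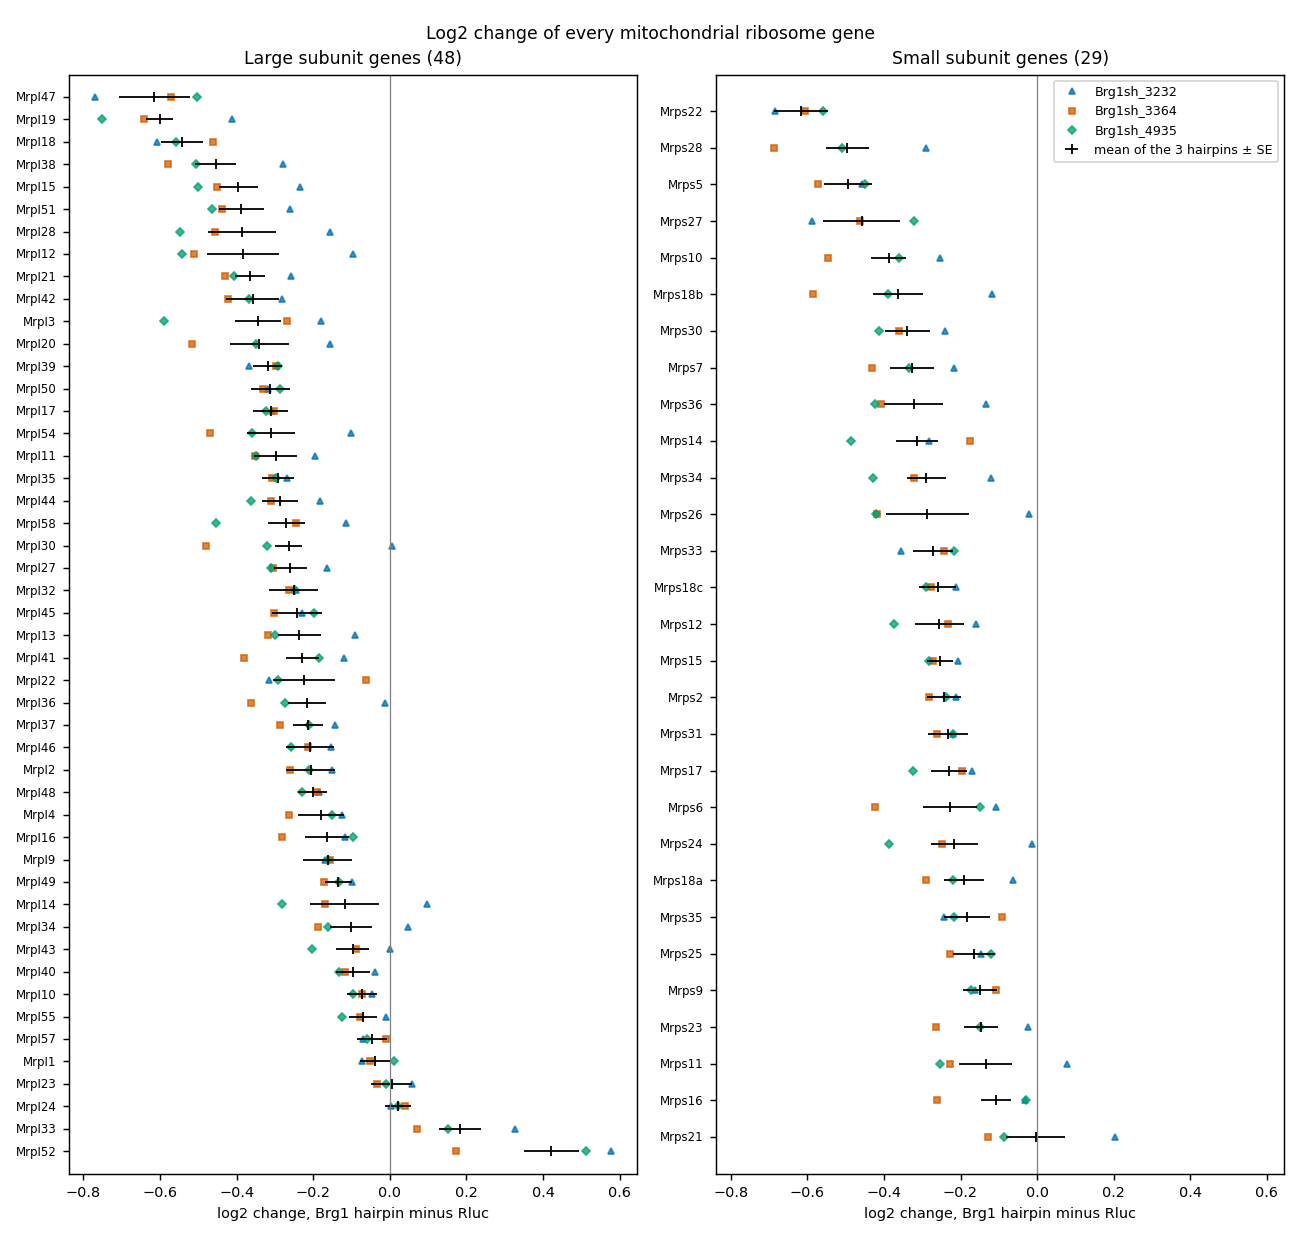
Log2 change of each of the 48 large and 29 small subunit genes, with 1 coloured point per Brg1 hairpin and the mean of the 3 hairpins ± SE in black; 0 is the mean of the 3 Rluc arrays. Most points lie left of 0, Mrpl52 lies farthest to the right at 0.42, and Mrpl24 lies at 0.02.

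Each hairpin gave a lower median for both subunits, with fewer calls for Brg1sh_3232. With Brg1sh_3232, 12 large and 11 small subunit genes fell, and Mrpl52 and Mrpl33 rose; 11.3% of all genes fell and 9.59% rose. With Brg1sh_3364, 33 large and 22 small subunit genes fell and 0 rose, against 12.2% and 13.6% of all genes. With Brg1sh_4935, 29 large and 18 small subunit genes fell and only Mrpl52 rose, against 12.3% and 9.79% of all genes. The median log2 changes for these 3 hairpins in turn were -0.15, -0.29 and -0.28 in the large subunit and -0.17, -0.28 and -0.32 in the small subunit. For Brg1sh_4935, centring the arrays moved the share of higher genes among all calls from 44.3% to 31.6%.

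These counts rest on pairs of arrays, and single arrays moved them. Without Brg1sh_3232 replicate 1, that hairpin's falls came to 7 large and 4 small subunit genes, and its small subunit count was 6 without its replicate 2 or without Rluc replicate 3. Without Brg1sh_3364 replicate 2 the falls for that hairpin were 15 and 10. Without Brg1sh_4935 replicate 1 they were 13 and 7, and 17 large subunit genes fell without its replicate 2. In these fits the lone remaining array is assumed to vary like the other groups. The share of all genes called was not computed for them, so a loss particular to the family cannot be told apart from a general loss of calls. For the mean of the 3 hairpins, leaving out 1 array gave 29 to 33 large and 18 to 22 small subunit genes lower.

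**Figure D2:**
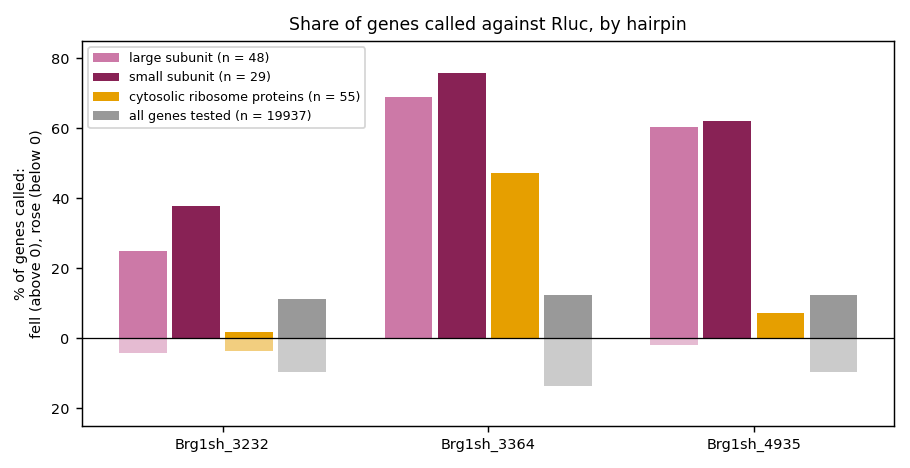
Percent of genes called against Rluc for each Brg1 hairpin, with falls drawn above 0 and rises below 0 in a lighter tone, for both mitochondrial subunits, 55 cytosolic ribosome genes and all 19937 genes. The bars for the mitochondrial subunits reach 25% and 37.9% with Brg1sh_3232, 68.8% and 75.9% with Brg1sh_3364, and 60.4% and 62.1% with Brg1sh_4935.

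The array-by-array view used the median, over the genes of a subunit, of each value minus that gene's Rluc mean. For the large subunit it was -0.15 and -0.13 on the Brg1sh_3232 arrays, -0.24 and -0.33 with Brg1sh_3364, and -0.27 and -0.27 with Brg1sh_4935. On the Rluc arrays it was 0.01, -0.04 and 0.01. For the small subunit the medians were -0.19 and -0.16, -0.25 and -0.32, and -0.30 and -0.29, against 0.01, -0.05 and 0.03 on the Rluc arrays. All 6 knockdown arrays therefore lay below all 3 controls in both subunits, with the Brg1sh_3232 arrays nearest to them. Gene by gene, all 6 knockdown arrays lay below all 3 Rluc arrays for 24 of 48 large and 16 of 29 small subunit genes, against 12.1% of all genes. They lay above for 0 of the 77, against 10.7% of all genes.

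**Figure D3:**
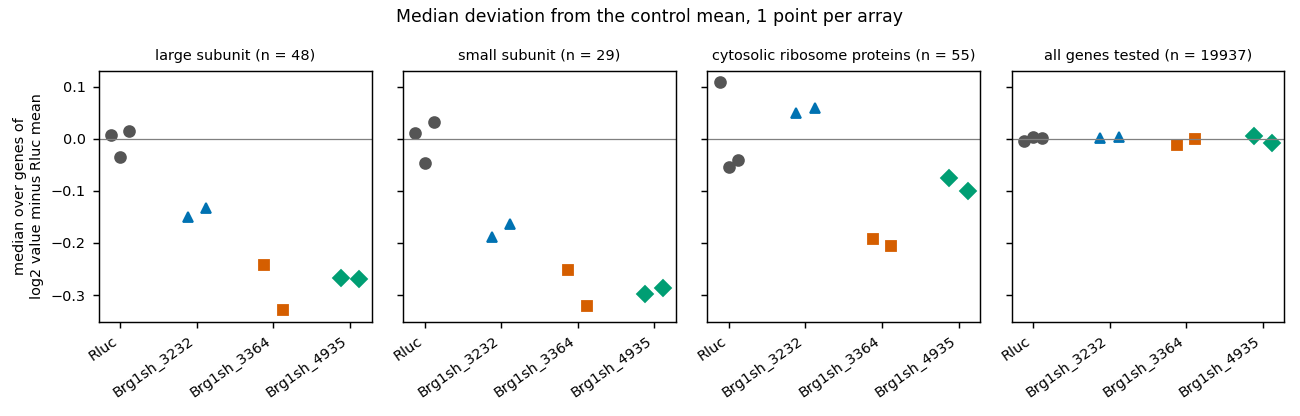
Median deviation from the Rluc mean on each array, in log2 units, for the large subunit, the small subunit, cytosolic ribosome proteins and all genes tested, with 1 point per array and 1 symbol per hairpin. Both mitochondrial subunits lie below 0 on all 6 knockdown arrays, and Rluc replicate 1 stands above the other controls for cytosolic ribosome proteins at 0.11.

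The largest fall in the large subunit was that of Mrpl47 (probe set 10497703), a member of the bacterial L29 family, which sits near the exit of the peptide tunnel. It read 9.56, 9.33 and 9.66 on the Rluc arrays, 8.92 and 8.57 with Brg1sh_3232, 9.03 and 8.85 with Brg1sh_3364, and 8.98 and 9.04 with Brg1sh_4935. Every knockdown array lay below every control, and the log2 change of the mean was -0.61 ± 0.09 SE, or 65.3% of control (adjusted p = 0.000977). A second, dimmer probe set of Mrpl47 (10497711) gave only -0.14 ± 0.09 SE and was not called (adjusted p = 0.349 in a fit of every deposited row). With Brg1sh_3232 the dimmer set changed by 0.01 ± 0.11 SE, against -0.77 for the brighter set. Its Brg1sh_3232 arrays, at 7.57 and 7.66, lay within its Rluc values of 7.53, 7.74 and 7.53. The size of the Mrpl47 change thus differs between its probe sets, and the dimmer set showed no fall with Brg1sh_3232.

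Mrpl19 (10545576), of the bacterial L19 family at the subunit interface, was the member with the smallest adjusted p. It read 11.63, 11.70 and 11.60 with Rluc, 11.21 and 11.25 with Brg1sh_3232, 11.03 and 10.98 with Brg1sh_3364, and 10.89 and 10.89 with Brg1sh_4935. The 4 groups did not overlap, and the mean change was -0.60 ± 0.04 SE, or 65.9% of control (adjusted p = 5.85e-06). Mrpl18 (10447880), of the family that binds the small accessory rRNA of the large subunit in bacteria, read 11.60, 11.60 and 11.82 with Rluc and between 11.05 and 11.23 on the 6 knockdown arrays. Its change was -0.54 ± 0.05 SE (adjusted p = 9.82e-05), and all 6 values lay below the controls.

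Mrpl38, a mitochondria-specific protein of the central protuberance, read 10.09, 10.02 and 10.25 with Rluc, 9.78 and 9.90 with Brg1sh_3232, 9.56 and 9.52 with Brg1sh_3364, and 9.61 and 9.61 with Brg1sh_4935. Its change of -0.45 ± 0.05 SE gave 73.0% of control (adjusted p = 0.000233). Mrpl15, of a family shared with bacteria, and Mrpl51, which bacteria lack, stood at 76.0% and 76.5% of control, and both had no overlap between knockdown and control arrays. The second probe set of Mrpl51 gave -0.36 ± 0.06 SE beside -0.39 for the first, so there the sets were alike. Mrpl12, the stalk protein that meets translation factors, read 10.80, 10.54 and 10.65 with Rluc, but 10.79 and 10.34 with Brg1sh_3232, so those groups overlapped. It was 10.20 and 10.10 with Brg1sh_3364 and 10.10 and 10.14 with Brg1sh_4935, for a mean change of -0.38 ± 0.09 SE (adjusted p = 0.0144). Its call was lost in 5 of 21 alternative fits.

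In the small subunit Mrps22 (10595900), a mitochondria-specific protein mutated in inherited respiratory chain disease, had the largest fall. It read 10.43, 10.26 and 10.59 with Rluc, 9.79 and 9.69 with Brg1sh_3232, 9.89 and 9.75 with Brg1sh_3364, and 9.87 and 9.86 with Brg1sh_4935. No knockdown array reached the lowest control, and the change was -0.62 ± 0.07 SE, or 65.2% of control (adjusted p = 0.000193). Mrps5 (10480379), of the bacterial S5 family, read 11.26, 11.33 and 11.55 with Rluc and between 10.77 and 10.97 on the knockdown arrays. Its change was -0.49 ± 0.06 SE (adjusted p = 0.000383), and its second probe set gave -0.42 ± 0.05 SE. Mrps5 was therefore lower on all 6 knockdown arrays by both probe sets.

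Mrps28 (10497209), of the bacterial S1 family, read 9.83, 9.98 and 9.98 with Rluc, 9.58 and 9.69 with Brg1sh_3232, 9.32 and 9.17 with Brg1sh_3364, and 9.48 and 9.36 with Brg1sh_4935. Its mean change was -0.50 ± 0.06 SE (adjusted p = 0.000196). Mrps27, a pentatricopeptide repeat protein, read 9.98, 10.06 and 10.43 with Rluc, so its controls were the most spread of those named here in the small subunit. Its knockdown arrays lay between 9.48 and 9.86 and its change was -0.46 ± 0.10 SE (adjusted p = 0.00774, and 0.0636 with hairpin means as single replicates). Mrps10 fell by 0.39 ± 0.05 SE on the log2 scale (adjusted p = 0.00025), with all knockdown arrays below the controls.

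The 3 paralogs of bacterial S18 were each called lower in the mean. Mrps18b changed by -0.36 ± 0.07 SE, Mrps18c by -0.26 ± 0.05 and Mrps18a by -0.19 ± 0.05, with adjusted p-values of 0.00261, 0.00336 and 0.0237. Only for Mrps18c did every knockdown array lie below every control, and the call of Mrps18a was lost in 11 of 21 alternative fits. Mrps18b was not called with hairpin means as single replicates (adjusted p = 0.109). In structures of the mammalian particle Mrps18a and Mrps30 sit in the large subunit, and Mrps36 is a subunit of the oxoglutarate dehydrogenase complex rather than of the ribosome. Mrps30 changed by -0.34 ± 0.06 SE (adjusted p = 0.00234) and Mrps36 by -0.32 ± 0.08 (adjusted p = 0.0118), whose call was lost in 4 of 21 alternative fits. Counted by structure, 34 of 50 large and 22 of 26 small subunit genes fell.

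**Figure D4:**
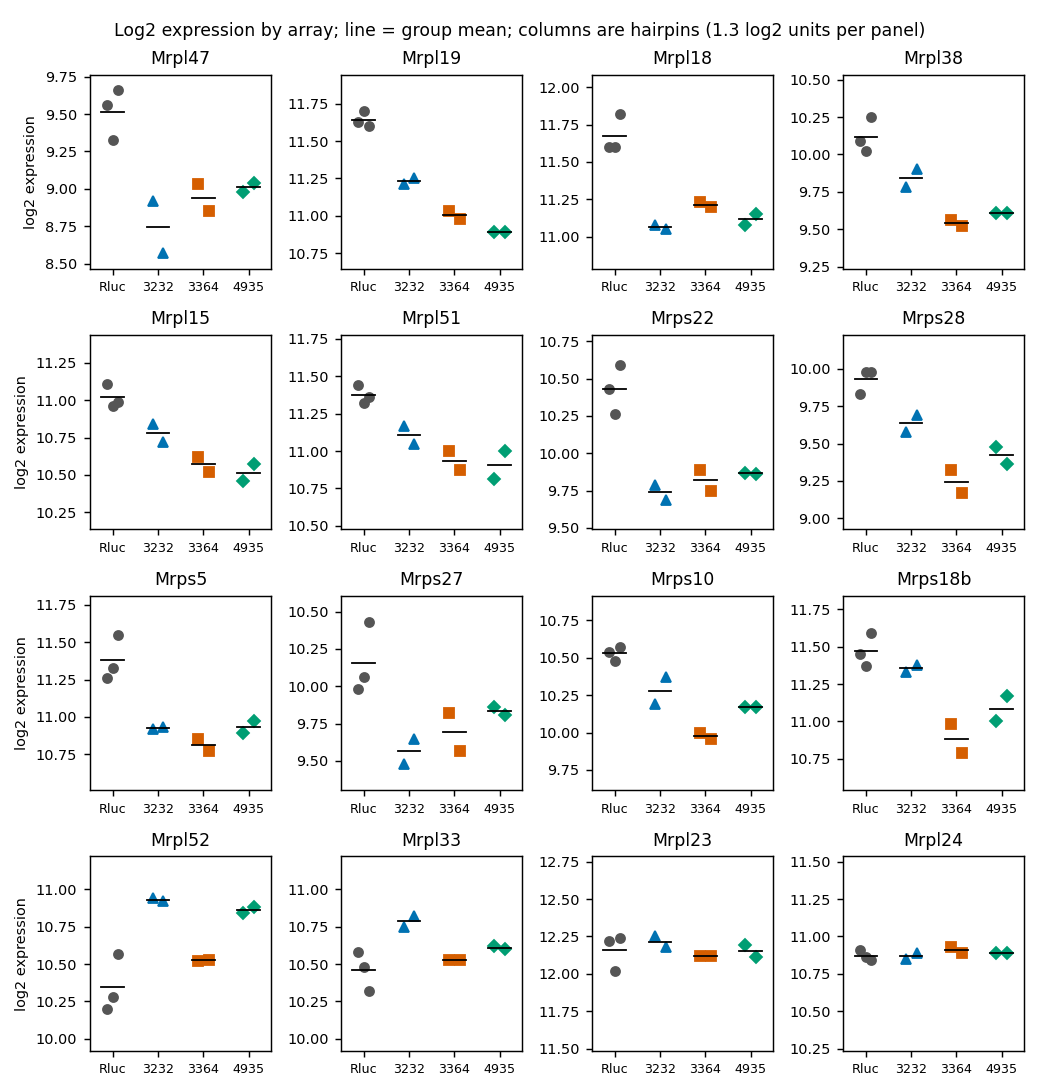
Log2 expression on each array for the 6 largest falls of each subunit, both rises and 2 of the smallest changes, with 1 point per array, a line at the group mean and 1 column per hairpin; every panel spans the same range of log2 units. The Rluc points of Mrpl19 lie between 11.60 and 11.70, above all knockdown points, whereas those of Mrpl52 lie between 10.20 and 10.57.

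The promoters of the genes with the largest called falls that the RefSeq table (build GRCm38.p6) lists are shown because these members moved together, 2 from each subunit. Each runs 5′ to 3′ on the gene's strand, from 250 bases before to 50 bases after the annotated start, with any searched motif in capitals. They lie at chr3:32736706-32737005 on the minus strand for Mrpl47, chr17:12916042-12916341 minus for Mrpl18, chr9:98601630-98601929 minus for Mrps22 and chr2:127587176-127587475 plus for Mrps5.
Mrpl47: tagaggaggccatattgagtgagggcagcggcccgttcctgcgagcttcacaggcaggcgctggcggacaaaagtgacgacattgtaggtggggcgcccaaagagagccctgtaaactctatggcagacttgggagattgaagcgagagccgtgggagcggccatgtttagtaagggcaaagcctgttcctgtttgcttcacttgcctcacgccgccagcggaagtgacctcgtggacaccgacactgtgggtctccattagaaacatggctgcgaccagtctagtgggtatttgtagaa
Mrpl18: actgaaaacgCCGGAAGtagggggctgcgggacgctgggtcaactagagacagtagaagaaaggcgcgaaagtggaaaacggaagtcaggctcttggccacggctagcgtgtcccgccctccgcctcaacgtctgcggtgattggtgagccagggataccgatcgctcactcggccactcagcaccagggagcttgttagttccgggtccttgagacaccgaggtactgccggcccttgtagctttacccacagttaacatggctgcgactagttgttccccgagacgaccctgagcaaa
Mrps22: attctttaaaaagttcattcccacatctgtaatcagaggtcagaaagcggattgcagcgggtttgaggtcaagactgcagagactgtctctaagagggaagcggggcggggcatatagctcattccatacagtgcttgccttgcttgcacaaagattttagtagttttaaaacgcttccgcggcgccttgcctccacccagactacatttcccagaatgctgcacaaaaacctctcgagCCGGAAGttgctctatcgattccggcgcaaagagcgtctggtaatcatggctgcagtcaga
Mrps5: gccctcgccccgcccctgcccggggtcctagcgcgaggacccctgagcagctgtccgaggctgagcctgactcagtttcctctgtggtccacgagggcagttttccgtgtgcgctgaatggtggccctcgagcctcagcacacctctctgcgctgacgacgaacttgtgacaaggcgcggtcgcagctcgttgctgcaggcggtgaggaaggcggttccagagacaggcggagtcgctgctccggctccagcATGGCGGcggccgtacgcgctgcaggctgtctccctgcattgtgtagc
The capitals mark the ETS core CCGGAAG, the core of sites for GABP, in Mrpl18 and Mrps22, and the YY1 core ATGGCGG in Mrps5, where it lies just after the start. The stretch for Mrpl47 holds none of the 4 motifs searched.

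Across the family, 68 of 77 genes had an entry in that table, with 74 promoters of 300 bases, and both strands were searched. The ETS core CCGGAAG was present in 33.8% of member promoters and in 8.86% of all 32851. The NRF1 core CGCATGCG was present in 9.46% against 1.87%, and the YY1 core ATGGCGG in 16.2% against 4.05%. The E-box CACGTG, the core bound by Myc with Max, was present in 9.46% against 7.15%. These were 7 of the 74 promoters but only 5 of the 68 genes. None of the 4 motifs contains another, and member promoters had a median GC content of 58.5% against 52.7%. For members with and without a motif, the median log2 changes were -0.26 and -0.23 for the ETS core, -0.25 and -0.24 for NRF1, -0.25 and -0.24 for YY1, and -0.22 and -0.24 for the E-box. The medians with a motif cover 25 genes for the ETS core, 7 for NRF1, 12 for YY1 and 5 for the E-box. A match describes the letters only, and binding was not measured here.

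Both rises were in the large subunit. Mrpl52 (10415045), a mitochondria-specific protein, read 10.20, 10.28 and 10.57 with Rluc, 10.94 and 10.92 with Brg1sh_3232, 10.52 and 10.53 with Brg1sh_3364, and 10.84 and 10.88 with Brg1sh_4935. The Brg1sh_3364 arrays overlapped the controls and the other hairpins did not. The mean change was 0.42 ± 0.07 SE, or 133.9% of control (adjusted p = 0.002), and was not called with hairpin means as single replicates (adjusted p = 0.0967). Mrpl33, of a family shared with bacteria, read 10.58, 10.48 and 10.32 with Rluc, 10.75 and 10.82 with Brg1sh_3232, 10.53 and 10.53 with Brg1sh_3364, and 10.62 and 10.60 with Brg1sh_4935. Its change of 0.18 ± 0.06 SE passed the threshold in the mean (adjusted p = 0.0356), but in only 6 of 21 alternative fits. Mrpl33 is among the calls lost without any one of 8 arrays; only without Rluc replicate 1 were both rises still called.

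The smallest changes were those of Mrpl23 and Mrpl24, of the families near the tunnel exit, and of Mrpl1, of the family that forms the mobile side stalk. They changed by 0.00 ± 0.05 SE, 0.02 ± 0.03 and -0.04 ± 0.04, and the 95% interval of Mrpl24 ran from -0.06 to 0.10. In the small subunit Mrps21 changed by 0.00 ± 0.08 SE (interval -0.18 to 0.17), Mrps16 by -0.11 ± 0.04 and Mrps11 by -0.13 ± 0.07. None of these 6 was called in the mean of the 3 hairpins. Mrps21 read 11.87 and 12.06 with Brg1sh_3232 and between 11.56 and 11.70 with the other Brg1 hairpins, against Rluc values of 11.95, 11.71 and 11.62. Of the 6 knockdown arrays 4 lay within the range of the controls. The other genes not called were Mrpl4, Mrpl9, Mrpl10, Mrpl14, Mrpl16, Mrpl22, Mrpl34, Mrpl40, Mrpl43, Mrpl55, Mrpl57 and Mrps26.

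Families shared with bacterial ribosomes were set beside mitochondria-specific proteins, without a test of their difference. By the numbers in the symbols, 30 of 44 shared and 27 of 33 mitochondria-specific genes fell, against 15% of all genes, with median log2 changes of -0.25 and -0.27. With Mrpl47, Mrps24 and Mrps28 counted as shared, a choice made after seeing the data, the counts were 33 of 47 and 24 of 30. Of the other genes with a second probe set, Mrpl27, Mrpl41 and Mrps33 gave -0.26, -0.23 and -0.27 by the brighter set and -0.16, -0.16 and -0.21 by the dimmer. Those dimmer sets, and the second sets of Mrpl23 and Mrps36, were not called in the fit of every row. RefSeq lists pseudogenes of Mrpl23, Mrpl27, Mrpl48 and Mrps36, so the values of these genes may include signal from copies. Only pseudogenes named by a member symbol were looked up, so copies of the other genes were not excluded.

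The Brg1 hairpins were also compared with each other. This contrast leaves the control arrays out, but they still enter the estimate of spread behind its p-values. The F test over the 3 hairpins called 9 members, 5 of the large and 4 of the small subunit, or 10.4% and 13.8% of them; it called 10.5% of all genes. With Brg1sh_3364, 7 large and 5 small subunit genes were lower than with Brg1sh_3232 and 0 were higher, against 3.84% and 5.81% of all genes. With Brg1sh_4935, Mrpl19 and Mrpl30 were lower than with Brg1sh_3232 and 0 were higher, against 0.411% and 0.612%. Between Brg1sh_4935 and Brg1sh_3364, Mrps14 was lower and Mrps16 higher with Brg1sh_4935, against 4.51% and 3.1%. The shares of members lower than with Brg1sh_3232 exceeded the background, the second of them with 2 genes. The other shares lay near or below it. Of 55 cytosolic ribosome genes, 22 (40%) were lower with Brg1sh_3364 than with Brg1sh_3232 and 0 were higher, with a median difference of -0.25. Lower values with Brg1sh_3364 were therefore not particular to the mitochondrial family. Between Brg1sh_4935 and Brg1sh_3232, 0 cytosolic genes were called, and the F test called 21.8% of the 55. Besides Mrpl19 and Mrpl30, the members lower with Brg1sh_3364 than with Brg1sh_3232 were Mrpl36, Mrpl38, Mrpl41, Mrpl52, Mrpl54, Mrps10, Mrps16, Mrps18b, Mrps23 and Mrps28. They were lower by 0.23 to 0.47 on the log2 scale.

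**Figure D5:**
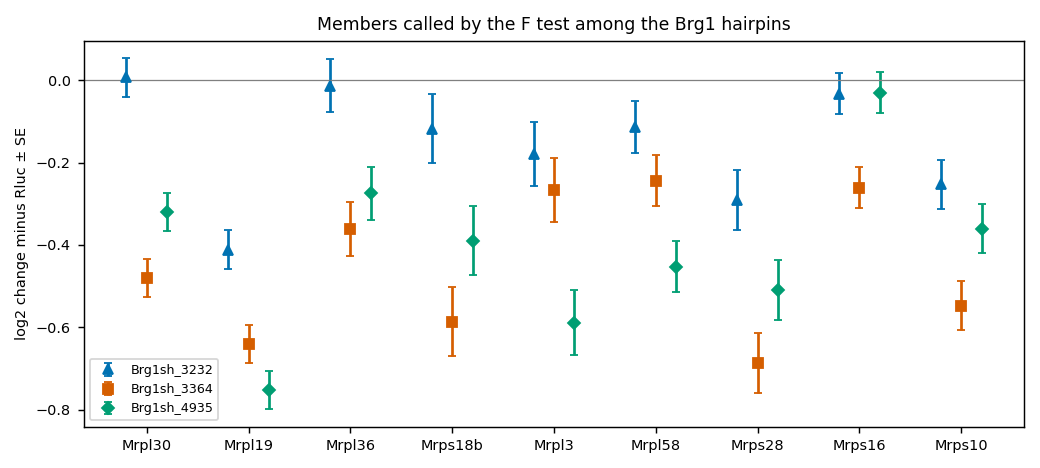
Log2 change against Rluc ± SE for the 9 members called by the F test among the Brg1 hairpins, with 1 symbol per hairpin. Brg1sh_3232 is the highest point for Mrpl30 at 0.01 and for Mrpl19 at -0.41.

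Mrpl30 (10345620), of a family shared with bacteria, had the smallest F test p of the family. It read 10.60, 10.54 and 10.52 with Rluc and 10.56 and 10.56 with Brg1sh_3232, which lay within the controls. It read 10.11 and 10.04 with Brg1sh_3364 and 10.21 and 10.25 with Brg1sh_4935, below all of these. The difference from Brg1sh_3232 was -0.49 for Brg1sh_3364 (adjusted p = 0.000859) and -0.33 for Brg1sh_4935 (adjusted p = 0.0253). Mrpl36, the small protein of the bacterial L36 family, showed the same order: 11.62 and 11.65 with Brg1sh_3232, 11.32 and 11.25 with Brg1sh_3364, and 11.40 and 11.35 with Brg1sh_4935, against 11.77, 11.57 and 11.60 with Rluc. Mrps18b read 11.33 and 11.38 with Brg1sh_3232, 10.98 and 10.79 with Brg1sh_3364, and 11.00 and 11.17 with Brg1sh_4935, against 11.45, 11.37 and 11.59 with Rluc.

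Mrpl3, of the family next to the peptidyl transferase centre, had its lowest values with Brg1sh_4935, at 11.03 and 11.19, against 11.60 and 11.44 with Brg1sh_3232 and 11.48 and 11.39 with Brg1sh_3364. Mrpl58, a peptidyl-tRNA hydrolase that rescues stalled ribosomes, was likewise lowest with Brg1sh_4935, at 10.41 and 10.48, against 10.57 to 10.82 with the other hairpins. Leaving out single arrays changed the F test count to 3, 4, 3, 3, 2 and 2 for the 6 knockdown arrays in the order of hairpin and replicate number, to 15 without Rluc replicate 1 and to 14 without Rluc replicate 3. Mrpl30 and Mrpl19 alone were called in all 17 alternative fits of this test. The share of all genes called by the F test without single arrays was not computed.

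Cytosolic ribosome proteins, which translate nuclear messages, were taken by symbol and set beside the family as the most similar complex. The symbols include Rps23rg1 and Rpl32l but not Rpl3, Rpl11 or Rps27, so they cover that complex only approximately. Of 55 such genes, 1 fell and 2 rose with Brg1sh_3232, 26 fell with Brg1sh_3364 and 4 fell with Brg1sh_4935, with medians of 0.05, -0.20 and -0.08. The falls were 1.82%, 47.3% and 7.27% of them, against 11.3%, 12.2% and 12.3% of all genes. Only the share with Brg1sh_3364 exceeded that background. Rises with Brg1sh_3232 were 3.64% against 9.59%. In the mean 12 of 55 fell, or 21.8% against 15% of all genes. All 6 knockdown arrays lay below all controls for 3 of 55, or 5.45% against 12.1% of all genes. Rluc replicate 1 stood apart here, and without it 3 fell and 14 rose with Brg1sh_3232, 19 fell with Brg1sh_3364, 3 fell and 2 rose with Brg1sh_4935, and 6 fell and 3 rose in the mean, an alternative chosen after seeing the data. The share of all genes called without Rluc replicate 1 was not computed. The difference between the families was not tested.

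Other nuclear genes of the mitochondrial expression pathway were counted in lists, in the mean of the 3 hairpins, where 15% of all genes fell and 13.3% rose. Of 4 further ribosomal proteins with other symbols, Ptcd3, Gadd45gip1 and Chchd1 fell, by 0.58 ± 0.06 SE, 0.26 ± 0.03 and 0.39 ± 0.08 on the log2 scale, and Dap3 was at 0.02 ± 0.04. With hairpin means as single replicates Gadd45gip1 and Chchd1 were not called (adjusted p = 0.107 and 0.0971), nor was Chchd1 without Brg1sh_4935 (adjusted p = 0.0652). Ptcd3 read 10.86, 10.72 and 10.96 with Rluc and between 10.17 and 10.36 on the knockdown arrays, with no overlap. Among 25 genes of ribosome assembly and rRNA modification, 10 fell and 1 rose, with a median log2 change of -0.13. Tfb1m, which methylates the small subunit rRNA, fell by 0.34 ± 0.04 SE. Noa1, a GTPase, and Fastkd2 and Mrm3, which act on the large subunit rRNA, fell by 0.43 ± 0.06, 0.55 ± 0.07 and 0.39 ± 0.07, the last not called with hairpin means as single replicates (adjusted p = 0.0681). Nsun4, an rRNA methyltransferase named after its value was seen, was the 1 that rose, at 0.44 ± 0.09.

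Of 17 mitochondrial translation factors, 7 fell and 0 rose, against 15% and 13.3% of all genes, with a median of -0.11. The elongation factor Tufm fell by 0.29 ± 0.04 SE, its exchange factor Tsfm by 0.25 ± 0.04, the translational GTPase Guf1 by 0.35 ± 0.06 and the amidotransferase subunit Gatb by 0.41 ± 0.06. Of 20 genes of mitochondrial DNA transcription and RNA processing, 13 fell and 2 rose, with a median of -0.22. Lrpprc and its partner Slirp, which stabilise mitochondrial messages, fell by 0.41 ± 0.05 and 0.40 ± 0.06, the tRNA-processing enzyme Elac2 by 0.34 ± 0.05 and the RNA helicase Supv3l1 by 0.43 ± 0.08. The 2 that rose were Polg2, the accessory subunit of the mitochondrial DNA polymerase, at 0.52 ± 0.10 and Mterf2 at 0.31 ± 0.10, both named after their values were seen.

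Of 13 regulators of mitochondrial gene expression, 5 fell and 2 rose, or 38.5% and 15.4% of the list. Of all genes 15% fell and 13.3% rose, so the rises were near that background. Pprc1, a coactivator of the PGC-1 family, fell by 0.46 ± 0.06 SE (adjusted p = 0.000541), and Tfeb and Tfe3, transcription factors of lysosomal genes, rose by 0.57 ± 0.05 and 0.24 ± 0.04. Nrf1, Gabpa and Yy1, whose motifs are counted above, were at -0.09 ± 0.04, -0.08 ± 0.04 and 0.03 ± 0.03 and were not called. Myc read 12.47, 12.34 and 12.39 with Rluc, 12.05 and 12.23 with Brg1sh_3232, 11.43 and 11.34 with Brg1sh_3364, and 11.86 and 11.86 with Brg1sh_4935. All knockdown arrays lay below the controls, lowest with Brg1sh_3364 and nearest with Brg1sh_3232, for a mean change of -0.60 ± 0.05 SE (adjusted p = 3.49e-05, and 0.0735 with hairpin means as single replicates). The part of any of these regulators in the lower values of the family was not tested.

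Some cell type markers moved with the same contrast, in which 15% of all genes fell and 13.3% rose. Of 10 macrophage markers 8 rose, among them Csf1r by 1.06 ± 0.04 SE and C3ar1 by 3.41 ± 0.17, and their summed linear signal was 12892 to 13644 with Rluc and 21687 to 31269 on the knockdown arrays. Mrc1 and Fcgr1 were not called, and 3 of the 10 lay below the array median on every array. Of 10 myeloid leukaemia markers 5 fell and 3 rose, with sums of 71107 to 77560 and 56867 to 69643. Of 8 mast cell and basophil markers 2 rose and 3 fell, with sums of 7465 to 8231 and 8515 to 14134. Their log2 changes ran from -1.71 to 3.46 with a median of 0.01. A sum weighs the brightest probe sets most, so the higher sums do not describe the list as a whole. Cd79b alone fell among the 8 lymphoid markers, or 12.5% of them, near the share of all genes. None of 4 erythroid and 6 fibroblast markers was called. Their part in the lower values of the mitochondrial ribosome genes was not tested, and in bulk RNA fewer cells of a type and less RNA per cell cannot be told apart.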

How the data were processed

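RNA of 9 samples was hybridised to Affymetrix whole-transcript arrays. The authors deposited log2 values after RMA, per the submitters' processing notes; the RMA version and the genome build of the array annotation were not stated there. Only these normalized values were analysed, which leaves background correction and scan batch unvaried. Of 34760 probe sets, 21640 had 1 gene symbol in the platform annotation, 1321 had several and 11799 had none; 1 further probe set that names a member beside other genes was not used. Member symbols were matched by Entrez identifier to RefSeq for all 77 genes and 0 changed. A gene was represented by the probe set with the highest mean over all arrays, which mattered for 8 members, and no filter on dim genes was applied.

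A model with 1 mean per hairpin was fitted in limma 3.58.1 (lmFit and eBayes, R 4.3.3), which left 5 residual and gave 3.85 prior degrees of freedom. Contrasts were each Brg1 hairpin minus Rluc, their equally weighted mean minus Rluc, each pair of Brg1 hairpins, and a moderated F test among them. Tests were two-sided, p-values were adjusted by Benjamini-Hochberg over 19937 genes, and a gene was called below 0.05, as fell or rose by its sign. SE is the standard error of the fit. The script was tested on simulated data.

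The members, gene lists and tests were chosen with earlier results of these data known. Genes were named by rule: per subunit the 6 largest called falls, the called rises and the 3 smallest changes in the mean, the 4 smallest F test p-values, Mrps18a, Mrps18b, Mrps18c, Mrps30, Mrps36, Mrpl12, genes with 2 probe sets, Smarca4 and Myc, and the 4 smallest p-values of each pathway list; other names were chosen after their values were seen. Lists were ribosomal proteins with other symbols, assembly and rRNA modification, translation factors, DNA transcription and RNA processing, biogenesis regulators, and markers of myeloid leukaemia, macrophage, mast cell and basophil, lymphoid, erythroid and fibroblast cells. Families shared with bacteria were those numbered up to 36 (Mrpl) and 21 (Mrps). Same-numbered replicates had correlations of -0.07 to 0.25 in their deviations from group means, not all above 0.1, so numbers were not taken as pairs. The highest, 0.19 and 0.25, were between Brg1sh_3232 and Rluc. With 2 arrays per hairpin the deviations within a hairpin mirror each other, so this check cannot exclude pairing. Promoters came from RefSeq GRCm38.p6. Alternatives were another normalization, centring, a filter on dim genes, other treatments of probe sets, the variance model, a stricter threshold, a replicate block, fewer arrays or hairpins, hairpin means as replicates, and subunits by structure.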

Additional observations from a re-analysis of the deposited data

Results flagged for a closer look

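For 9 members the change against Rluc differed among the 3 Brg1 hairpins by the moderated F test (limma, Benjamini-Hochberg adjusted over all genes). These are 11.7% of the 77 members, near the 10.5% of all genes called. The adjusted p was 0.00164 for Mrpl30 and 0.00867 for Mrpl19. It was 0.0296 for Mrpl36, 0.0302 for Mrps18b, 0.0316 for Mrpl3, 0.0322 for Mrpl58, 0.0329 for Mrps28, 0.0365 for Mrps16 and 0.0451 for Mrps10. Mrpl30 and Mrpl19 were called in all 17 alternative fits, and the other 7 calls were lost in some: Mrps16 was called in 6, Mrps28 and Mrps10 in 7, Mrpl36, Mrps18b and Mrpl58 in 9, and Mrpl3 in 10.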

How the results depend on the processing

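No value of the 2 subunits or of the named genes reversed its direction under any alternative while called. For Brg1sh_3232, small subunit falls moved from 11 to 6 with every deposited row tested, 4 at an adjusted p below 0.01 and 4 with only its own and the Rluc arrays; the rises moved from 2 to 1 under the last 2 settings, and the small subunit median became -0.21 with probe sets averaged. At an adjusted p below 0.01, falls were 21 large and 13 small for Brg1sh_3364, 17 large for Brg1sh_4935 and 16 small for the mean, with 1 rise in the mean and 2 members by the F test. Centring gave medians of -0.33 and -0.32 for Brg1sh_3364, -0.34 and -0.38 for Brg1sh_4935 and -0.28 and -0.30 for the mean, 1 rise in the mean and 14 F test calls. The F test called 16 members after a further quantile normalization, 17 without genes below the median level, where all 77 members stayed, and 2 with every row tested, where the mean had 1 rise. With hairpin means as replicates, falls were 17 and 12 with 0 rises. Without Brg1sh_3232 the large median was -0.29 with 1 rise, and without Brg1sh_4935 there was 1 rise. The replicate block gave 5 small subunit falls and a large median of -0.12 for Brg1sh_3232, 1 rise for Brg1sh_3364 and 1 rise in the mean. Whether the replicate numbers pair the arrays is not known. Leaving out 1 array gave, for Brg1sh_3232, 7 to 16 large and 4 to 11 small falls, 1 to 3 rises and a large median of -0.17 to -0.12. For Brg1sh_3364 it gave 15 to 32 and 10 to 20 falls, 0 to 1 rises and medians of -0.33 to -0.24 and -0.32 to -0.25. For Brg1sh_4935 it gave 13 to 30 and 7 to 19 falls and medians of -0.30 to -0.25 and -0.36 to -0.28. For the mean it gave 1 to 2 rises and a large median of -0.27 to -0.23, and the F test called 2 to 15 members. The stricter threshold reduces calls by construction, and otherwise the cause was not tested. Apart from centring and the further quantile normalization, the share of all genes called was not computed for these alternatives. A loss particular to the family therefore cannot be told apart from a general loss of calls.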
